A study of Mus musculus with 6 samples.

Results

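The 6 arrays of this study of mouse TM4 cells stood in pairs on 3 slides, and the comparison described here sets the array at position 2 of each slide against the array at position 1. All 6 samples of the series enter it, 3 per position, chosen by the array code that the scanner output records and not by any measured value. Positions 1 and 2 are numbers given here to the lower and the higher code of each slide. TM4 is a somatic line from mouse testis that is widely used as a model of Sertoli cells, the supporting cells of the seminiferous tubule. The study itself compared 3 untreated samples with 3 samples kept for 24 h in 10 µM 4-nitrophenol (PNP), a phenol of diesel exhaust and of insecticide breakdown. RNA of each sample was labelled with Cy3 and hybridised to 1 single-colour Agilent whole-genome array. All samples are the same unmodified line, and whether replicates came from separate cultures is not stated in the labels, so the spread behind each p-value is that between these 6 samples and may be only technical.

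The arrays at position 1 were those of untreated replicates 1 and 3 and of PNP replicate 2. Those at position 2 came from untreated replicate 2 and from PNP replicates 1 and 3. Slide 1 carried untreated replicates 1 and 2, slide 2 untreated replicate 3 with PNP replicate 1, and slide 3 PNP replicates 2 and 3. Treatment is therefore not balanced over the positions, and it was kept as a term in the model. Samples with odd numbers in their titles were all at position 1 and those with even numbers all at position 2, so the place on the slide and anything that differed between odd and even samples, from culture to labelling, cannot be told apart. In RNA from whole cultures, fewer cells of a type and less RNA per cell cannot be told apart either.

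The genes described first belong to the response to growth factors, and the 4 lists that hold them account for 16 of the 512 named genes that passed the test given below. When a growth factor or serum activates the kinase ERK, a set of immediate early genes is transcribed within minutes, among them the EGR zinc finger factors and the FOS and JUN proteins that form AP-1. ERK signalling also induces its own inhibitors, the dual specificity phosphatases (DUSP) and the Sprouty proteins, and the PEA3 factors ETV1, ETV4 and ETV5. DBP and NR1D1 are outputs of the circadian clock, which cultured cells keep and which fresh serum can reset.

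At position 2, transcripts of Egr1, Fosl1, Spry1, Spry2, Dusp5, Dusp6, Etv5 and Mat2a were lower than at position 1, by 2.58-fold to 5.64-fold. Egr3 was at least 3.99-fold lower with the background subtraction used here. Tram2, Dbp and Nr1d1 were higher, by 6.62-fold, 3.90-fold and 2.33-fold. In all, 819 of 21505 units passed limma's test with treatment in the model (3.81% at an adjusted p under 0.05), 348 of them higher at position 2 (1.62%) and 471 lower (2.19%). A unit is a named gene, represented by its brightest probe, or a transcript without a symbol. At least 2-fold differences were seen in 657 of the 819 (3.06% of all units), 265 higher (1.23%) and 392 lower (1.82%). The median difference was 1.15 on the log2 scale among the called units that were higher and -1.27 among those that were lower, against 0.07 over all units tested. Among the 13590 named genes, 512 were called (3.77%), 210 higher (1.55%) and 302 lower (2.22%).

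All 819 called units differed in the same direction in untreated and in PNP samples, and 817 did so on each of the 3 slides. These units were called from the same arrays, so this follows largely from how they were chosen. A difference in the position effect between untreated and PNP samples was tested as an interaction in limma and gave 0 calls, with a smallest adjusted p of 0.141 and 343 units (1.59%) at an unadjusted p under 0.05. It gave 8 calls when backgrounds were corrected with normexp and 1 call under a robust variance trend. PNP against untreated, in the same limma model, gave 0 calls, with a smallest adjusted p of 0.112 and 2671 units at an unadjusted p under 0.05. By size alone, 1024 units (4.76%) differed at least 2-fold between positions and 569 (2.65%) between treatments, both from a fit with the same standard error per unit.

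The number of calls rested on the few arrays that carry the comparison. Untreated replicate 2 and PNP replicate 2 are each the only array of their treatment at their position. Without the former 1 unit was called in limma, and without the latter 19. Leaving out untreated replicate 1, untreated replicate 3 or PNP replicate 3 gave 161, 126 and 277 calls, and leaving out PNP replicate 1 gave 1464. In each of these 6 fits, all 819 units kept their direction, but these fits share most of their arrays with the one that called the units. With slide as a fixed block beside treatment, 2538 units were called, and these included all 819. With every probe tested and no filter on dim probes, limma called 0 of 45356 units, while 4391 had an unadjusted p under 0.05.

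Several readings of the scans moved with position. The 75th percentile of log2 signal, which was subtracted from each array, was lower at position 2 on every slide, by -0.18, -0.10 and -0.25. Probes well above background made up 48.0% to 57.9% of all probes at position 1 and 51.7% to 55.3% at position 2, no spot was saturated, and the median local background was the same for both arrays of each slide. Outlier spots, which were left out, were fewer at position 2 on every slide, with 0.13% to 0.44% against 0.31% to 0.61%. Pearson correlations over the units, which do not vary independently of each other, were 0.980 to 0.986 between arrays of the same position and 0.968 to 0.983 for arrays of different positions, so the ranges overlapped. Of the E1A spike-in control probes, 5 were above background in most spots of every array. After the percentile was subtracted, a20 was higher at position 2 by 0.29, 0.44 and 0.26 on slides 1 to 3 and n11 by 0.34, 0.12 and 0.83. The other 3 probes differed by between -0.16 and 0.85, with both signs among the slides. The part of these readings in the results was not tested.

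**Figure D1:**
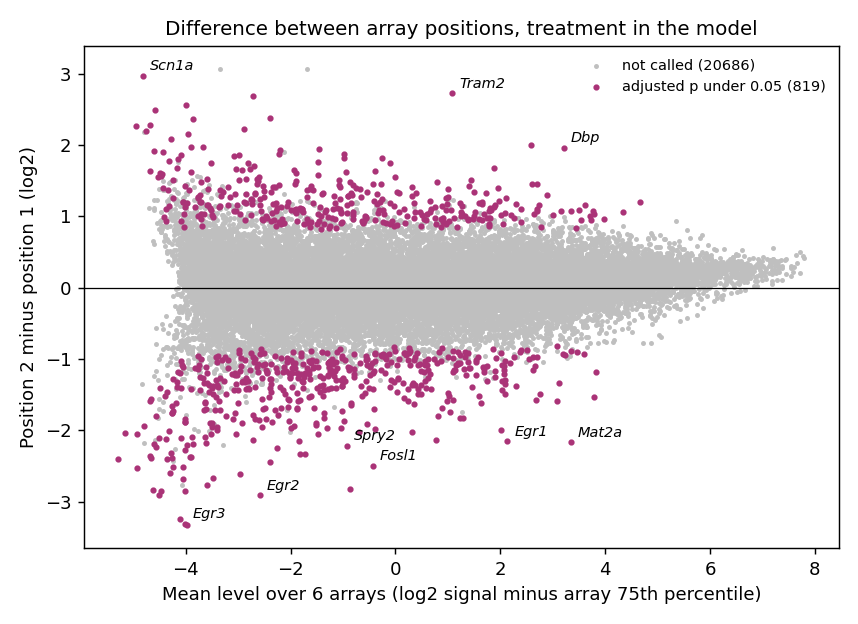
Difference between array positions (position 2 minus position 1, log2, from limma with treatment in the model) against the mean level over 6 arrays (log2 signal minus the array's 75th percentile), 1 point per unit. The 819 units with an adjusted p under 0.05 are coloured and lie on both sides of 0 at every level up to about that of Mat2a; the brightest units show small differences.

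Levels below are log2 signal minus the array's 75th percentile, so that 0 is the level of that percentile and a step of 1 is a factor of 2. They are listed as untreated replicates 1 and 3 and PNP replicate 2 for position 1, then untreated replicate 2 and PNP replicates 1 and 3 for position 2. Values per slide are plain differences between its arrays, which on slide 2 differ in treatment as well. Differences are limma estimates with their standard error (SE, 3 arrays per position), which allow for treatment and so need not equal the difference of the means. Counts of calls in a list are to be read beside the shares of all units, 1.62% higher and 2.19% lower.

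Of the 4 measured members of the EGR and NAB list, 3 were called, all of them lower at position 2. Egr1, the zinc finger factor most often used as a readout of ERK activity, stood at 3.09, 3.09 and 3.39 at position 1 and at 1.15, 1.20 and 0.86 at position 2. It was a bright probe in all 6 samples, and the SD within a position was 0.17 and 0.18. The difference was -2.15 ± 0.20 (limma, adjusted p = 0.0103), and the slides gave -1.94, -1.89 and -2.53. Egr2, a relative that also directs myelination and hindbrain patterning, stood at -0.74, -1.49 and -1.12 against -3.91, -4.59 and -3.68, with a difference of -2.91 ± 0.32 (limma, adjusted p = 0.0136). It cleared background on 2 of 3 arrays of position 2, and after normexp background correction the difference was -1.33, still called. Egr3 cleared background on each array of position 1, at -2.34, -2.72 and -1.86, and on none of position 2. It was at least 3.99-fold lower there. The test was of the fitted difference of -3.31 (limma, adjusted p = 0.0140), which rests on signal that did not clear background at position 2. Egr3 passed the filter through position 1 alone.

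That bound is used wherever no array of a position cleared background. It holds only for the background subtraction used here and does not allow for treatment. With normexp a fitted difference could be smaller than the bound, as for Egr3 (-0.76 on the log2 scale). It divides the bright position's mean by a floor for the dim position. The floor is averaged over arrays, taking on each one the weakest signal that still cleared background, or the probe's own signal if that was higher. The list's median difference was -2.07 with Egr3 at its bound (-2.53 with its fitted value). The other measured one, Nab2, a corepressor that EGR proteins induce, had -0.71 ± 0.18 and did not pass (limma, adjusted p = 0.0797). Its arrays of position 2 all lay below those of position 1, and another Nab2 probe gave -1.17. Nab2 is named here after its value was seen. Egr4 and Nab1 had no probe past the filter.

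EGR and other ERK-responsive promoters are bound by serum response factor at the CArG box, the core of the serum response element. Promoter sequences of RefSeq (GRCm38.p6, 250 bases before to 50 after a start) were found for 15 of 20 called genes of the ERK, clock and methionine lists. None was found for Egr1, Egr3, Fosl1, Phlda1 and Hbegf, so these genes were not searched for any motif. A CArG box was found on either strand in 2 of the 15, Dusp5 and Egr2, against 1.63% of 32851 promoters and 1.81% of 27025 genes in the table. The 120 bases before the start are shown for these 2 genes because they hold a CArG box, with the boxes in capitals. Both genes were lower at position 2. Egr2 has several starts, and that shown was picked by the box in its stretch. Dusp5 lies on chromosome 19 (chr19:53529025-53529144, plus strand) and has 2 boxes side by side, and Egr2 on chromosome 10 (chr10:67537749-67537868, plus strand) has 1.
Dusp5: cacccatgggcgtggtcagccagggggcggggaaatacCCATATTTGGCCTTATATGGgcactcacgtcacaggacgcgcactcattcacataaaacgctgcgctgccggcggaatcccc
Egr2: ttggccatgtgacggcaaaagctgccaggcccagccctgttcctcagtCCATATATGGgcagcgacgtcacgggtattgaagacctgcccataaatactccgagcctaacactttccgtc
Counted from the start, the boxes lie at -82 to -63 in Dusp5 and at -72 to -63 in Egr2. The E-box CACGTG was found in Egr2 (at another of its starts) and Ptgs2, against 7.15% of promoters. The AP-1 site TGANTCA (7.81% of promoters), the CRE TGACGTCA (1.79%) and the D-box TTANGTAA (2.32%), read on both strands and counted separately, were in none of the 15. Each is a match of letters in this window and no measurement of binding.

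**Figure D2:**
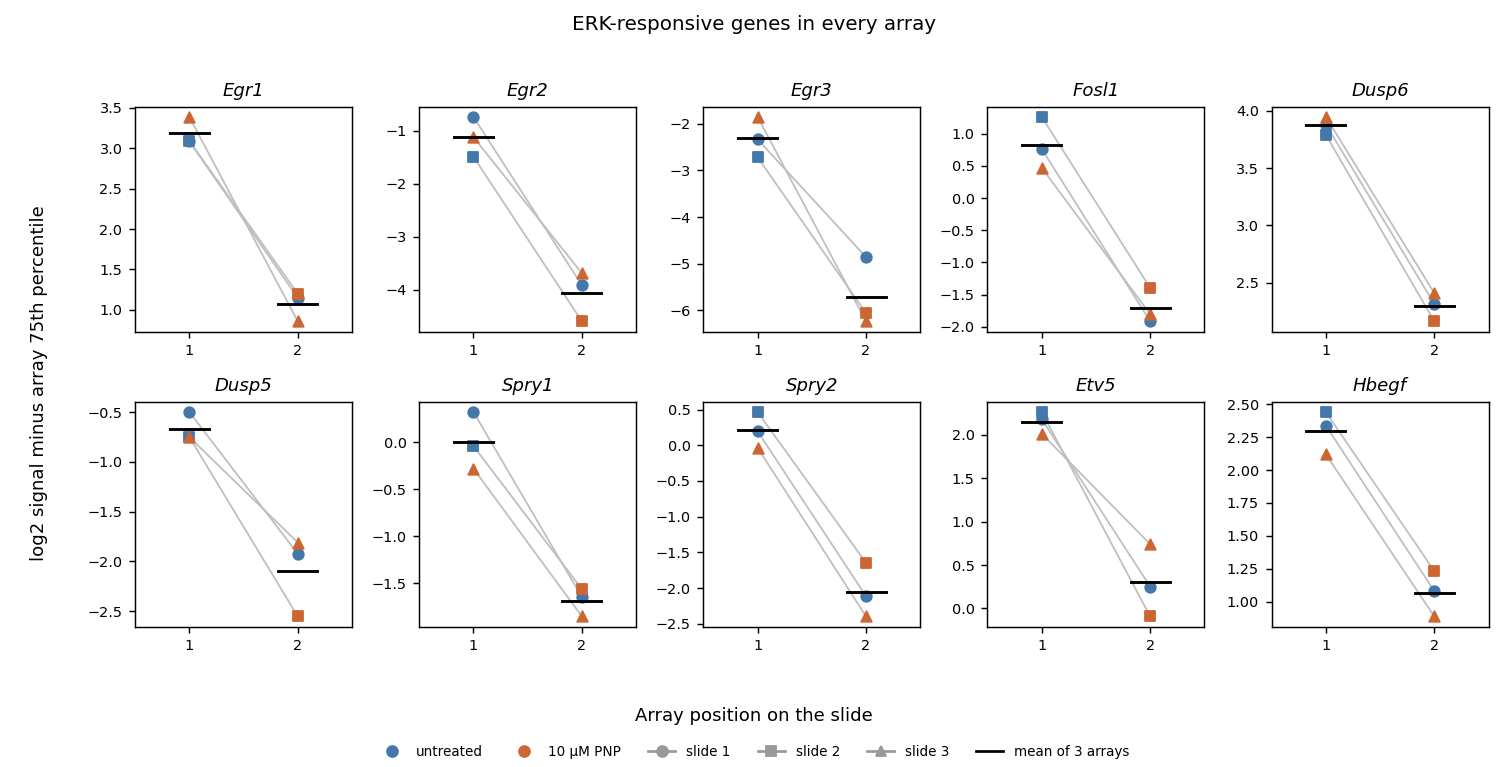
Levels of 10 ERK-responsive genes (log2 signal minus the array's 75th percentile) at positions 1 and 2, 1 point per array. Colour gives the treatment, the symbol and grey line the slide, and the black bar the mean of 3 arrays; each panel has its own axis. All 10 were picked from genes called lower, and in every panel all 3 arrays of position 2 lie below all 3 of position 1, in untreated and PNP samples alike. Members of the same lists that did not pass, such as Fos, Fosb, Jun, Junb and Dusp4, or that were called higher (Dusp10) are not shown.

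Among the 10 AP-1 genes, 2 were called, both lower, and the list's median difference was -0.26. Fosl1 encodes FRA1, a FOS protein known to accumulate under sustained ERK activity. It stood at 0.76, 1.26 and 0.47 at position 1 and at -1.91, -1.39 and -1.80 at position 2. The positions did not overlap, and the difference was -2.50 ± 0.27 (limma, adjusted p = 0.0136), or 5.64-fold lower. Fosl2, which encodes FRA2, depended on the probe. Its brighter probe stood at 2.40, 2.49 and 2.94 against 1.40, 1.50 and 1.63 (-1.21 ± 0.18, limma, adjusted p = 0.0223), while another Fosl2 probe differed by 1.02, the other way, and their median by -0.09.

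The classical members of AP-1 did not pass. Fos stood at -2.20, -2.28 and -2.51 against -3.00, -2.36 and -4.68, and it cleared background on 2 of 3 arrays of position 2. Its low values there came from PNP replicate 3 and untreated replicate 2 (-0.88 ± 0.55, limma, adjusted p = 0.409). Fosb (0.29 ± 0.20), Jun (0.22 ± 0.22) and Junb (-0.20 ± 0.20) overlapped between the positions, with limma adjusted p-values of 0.476, 0.632 and 0.627. So within the FOS and JUN proteins the lower values at position 2 that passed were those of the FRA genes, and for FRA2 they were those of 1 probe of 2.

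The list of other immediate early genes had 31 measured members, of which 4 were lower and 0 higher, with a median of -0.35. Hbegf, a membrane-anchored ligand of the EGF receptor, stood at 2.34, 2.44 and 2.12 against 1.08, 1.23 and 0.89 (-1.18 ± 0.19, limma, adjusted p = 0.0262). The slides gave -1.26, -1.21 and -1.23, nearly the same value. Ptgs2, the inducible cyclooxygenase that makes prostaglandins, had a difference of -1.08 ± 0.18, Nr4a1, an orphan nuclear receptor, -0.995 ± 0.18, and Phlda1, a pleckstrin-like protein induced by growth factors, -0.97 ± 0.18 (limma, adjusted p from 0.0262 to 0.0353). Myc, which drives growth and is also induced by serum, stood at 4.30, 4.38 and 4.34 against 3.69, 3.48 and 3.95. The positions were separate, but the difference of -0.64 ± 0.20 did not pass (limma, adjusted p = 0.126). At an unadjusted p under 0.05, 13 of 31 members were lower and 1 higher, against 9.78% and 11.7% of all units. In this list 14 of 31 members had all arrays of position 2 below all arrays of position 1, where 11.2% of all units did, and 1 had them above, where 12.1% did.

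ERK's feedback inhibitors and the PEA3 factors were the list with most calls. Of 15 measured members, 6 were lower and 1 higher, with a median difference of -0.52. Spry2 stood at 0.20, 0.47 and -0.04 against -2.11, -1.65 and -2.40, and Spry1 at 0.32, -0.04 and -0.28 against -1.65, -1.56 and -1.85. These Sprouty proteins block receptor tyrosine kinase signalling upstream of ERK, and all position 2 arrays were far below all position 1 arrays for both. The differences were -2.22 ± 0.26 and -1.61 ± 0.21 (limma, adjusted p = 0.0139 and 0.0157).

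Dusp6, the cytoplasmic phosphatase that removes phosphate from ERK, stood at 3.88, 3.79 and 3.95 against 2.32, 2.16 and 2.41. It had an SD of 0.08 and 0.12 within the positions and a difference of -1.59 ± 0.18 (limma, adjusted p = 0.0136). Dusp5, its nuclear counterpart and one of the genes with a CArG box above, stood at -0.50, -0.75 and -0.75 against -1.92, -2.55 and -1.81 (-1.37 ± 0.25, limma, adjusted p = 0.0324). Etv5, a PEA3 factor downstream of FGF and GDNF signals in testis, stood at 2.18, 2.26 and 2.01 against 0.25, -0.09 and 0.74. Its difference was -1.83 ± 0.26 (limma, adjusted p = 0.0192). The calls of this list are completed by Etv1 (-1.03 ± 0.22, limma, adjusted p = 0.0481) and, in the other direction, Dusp10 (1.14 ± 0.24, limma, adjusted p = 0.0488), both named after their values were seen. DUSP10 acts on the stress kinases p38 and JNK and not mainly on ERK. Dusp4 (0.31 ± 0.21) and Etv4 (-0.52 ± 0.19) did not pass (limma, adjusted p = 0.454 and 0.169), and Spry4 had no probe past the filter.

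Of 25 measured kinases, adaptors and receptors that feed ERK, 1 was lower and 0 were higher, with a median of 0.05, close to that of all units. The share called, 4%, was also near the 3.81% of all units. Sos1, the exchange factor that loads RAS with GTP, stood at 0.04, 0.21 and 0.39 against -1.43, -0.42 and -1.36 (-1.41 ± 0.28, limma, adjusted p = 0.0412). The arrays did not overlap, and the value of PNP replicate 1 was the nearest to position 1.

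**Figure D3:**
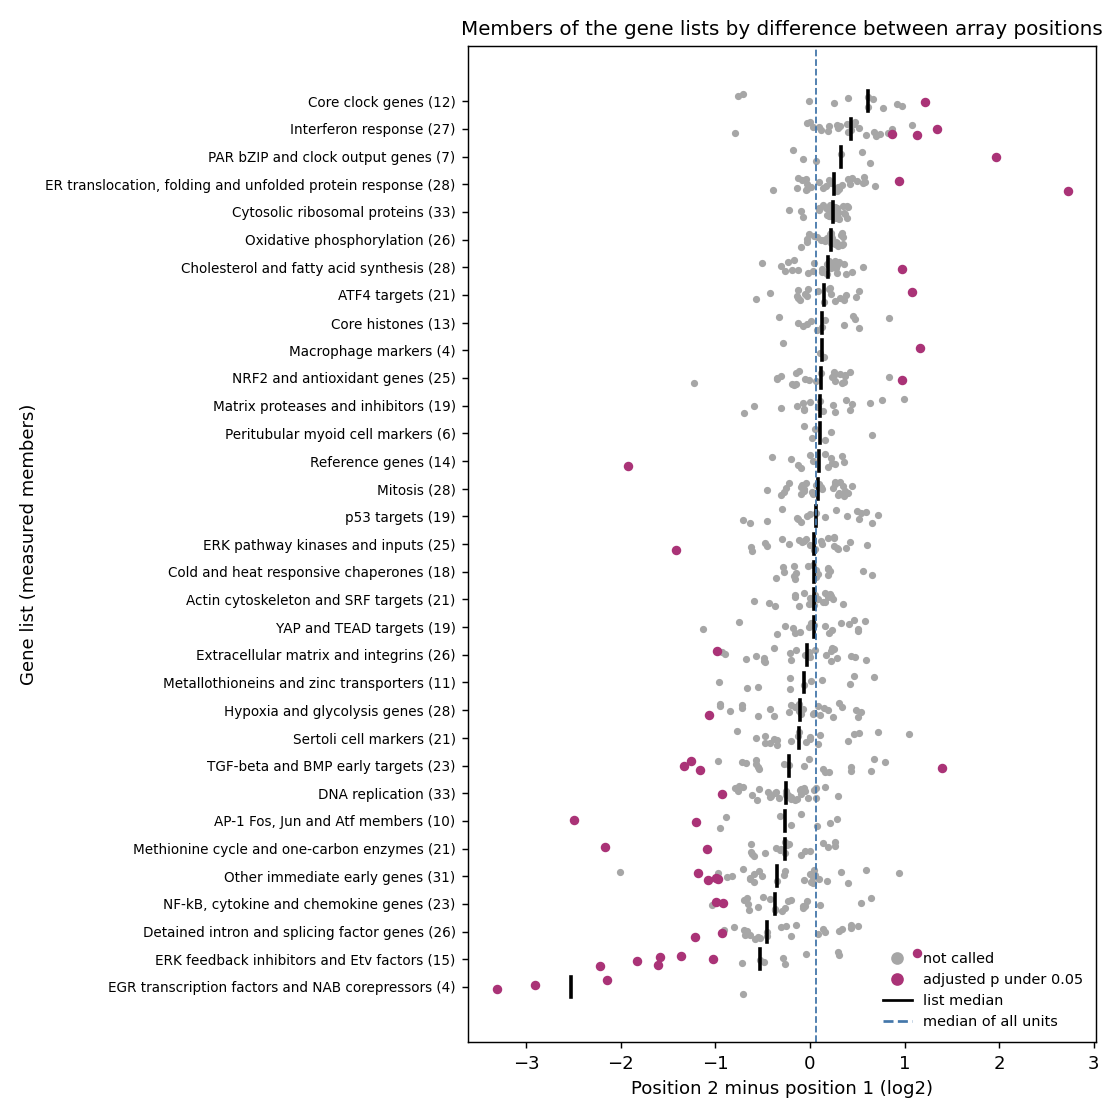
Difference between array positions (position 2 minus position 1, log2) of each measured member of 33 gene lists, ordered by the list's median. Coloured points passed limma at an adjusted p under 0.05, black bars are list medians and the dashed line is the median of all units, 0.07; the lists with most calls on the lower side are ERK feedback (6 of 15), other immediate early genes (4 of 31), EGR (3 of 4) and TGF-beta and BMP targets (3 of 23), and members are not independent of each other.

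The clock genes that passed were higher at position 2. Dbp, a PAR bZIP factor driven directly by CLOCK and BMAL1, stood at 2.44, 2.31 and 2.08 at position 1 and at 4.34, 3.96 and 4.12 at position 2. It was a bright probe with an SD of 0.19 at each position, and another Dbp probe differed by 2.16. The difference was 1.96 ± 0.18 (limma, adjusted p = 0.0103), or 3.90-fold. Nr1d1, which encodes the repressor REV-ERB alpha, stood at -0.87, -1.18 and -0.91 against 0.49, -0.06 and 0.09 (1.22 ± 0.22, limma, adjusted p = 0.0314).

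Of the 12 measured core clock genes, 1 was called higher and 0 lower, and the median difference was 0.62. Estimates were above 0 for 9 and below 0 for 3. Furthest below 0 were Clock (-0.76 ± 0.37) and Arntl (-0.70 ± 0.22), which did not pass (limma, adjusted p = 0.293 and 0.126). Both are named here after their values were seen. For Arntl the arrays of position 2 all lay below those of position 1, and another probe gave -0.84. Of 7 PAR bZIP and output genes, 1 was called higher and 0 lower, with a median of 0.33. The period genes, repressors of the clock, all had estimates above 0 and none passed: Per1 0.92 ± 0.23, Per2 0.97 ± 0.22 and Per3 0.62 ± 0.19 (limma, adjusted p = 0.0719, 0.0547 and 0.121). For Per2 the slides gave 1.29, 0.08 and 0.76, and another Per2 probe gave 0.01. Its small value on slide 2 mixes position with treatment, for which the fitted difference was -0.79 (PNP minus untreated). Tef, a relative of Dbp, had 0.63 ± 0.19 (limma, adjusted p = 0.112). Hlf and Nr1d2 overlapped between positions, with -0.07 ± 0.17 and 0.25 ± 0.26 (limma, adjusted p = 0.857 and 0.643).

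Mat2a, which makes S-adenosylmethionine, the cell's methyl donor, from methionine, was among the brightest probes that differed. It stood at 4.47, 4.15 and 4.58 at position 1 and at 2.27, 2.41 and 2.18 at position 2. The difference of -2.16 ± 0.20 (limma, adjusted p = 0.0103) was 4.48-fold, and another Mat2a probe gave -2.40. Of 21 measured enzymes of the methionine and one-carbon cycles, 2 were lower and 0 higher, with a median of -0.27. The other called member was Mtap, which salvages methionine from methylthioadenosine, at 2.48, 2.49 and 2.75 against 1.38, 1.54 and 1.80 (-1.09 ± 0.18, limma, adjusted p = 0.0262). Mettl16, the methyltransferase that controls the splicing and stability of Mat2a RNA, had -0.36 ± 0.18 and did not pass (limma, adjusted p = 0.305).

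Mat2a is also known for a retained intron that holds part of its RNA in the nucleus, as in many transcripts of splicing factors and CLK kinases. Of 26 measured genes of that kind, 2 were lower and 0 higher, with a median of -0.45. Srsf6, an SR splicing factor, had a difference of -1.21 ± 0.22 and -1.40 with another probe. Srsf1, also an SR protein, had -0.93 ± 0.18, and another probe gave 0.16 (limma, adjusted p = 0.0355 and 0.0404 for the brighter probes). Clk1 and Clk4, kinases of SR proteins, had 0.44 ± 0.21 and 0.50 ± 0.24 and did not pass (limma, adjusted p = 0.288 and 0.283).

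Among units with a mean level above 0, Tram2 had the largest rise. It encodes a protein of the endoplasmic reticulum (ER) membrane associated with the translocon and with collagen synthesis. It stood at 0.03, -0.20 and -0.48 at position 1 and at 2.66, 2.05 and 2.39 at position 2, and the slides gave 2.63, 2.25 and 2.88. The difference was 2.73 ± 0.19 (limma, adjusted p = 0.0103), or 6.62-fold. Its paralogue Tram1 overlapped between positions, with -0.39 ± 0.26 (limma, adjusted p = 0.440).

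Among 28 genes of ER translocation, folding and the unfolded protein response, 2 were higher and 0 lower, with a median of 0.26. Besides Tram2 this was Herpud1, a component of ER-associated degradation (0.94 ± 0.19, limma, adjusted p = 0.0418), at 3.55, 3.36 and 2.63 against 4.25, 3.64 and 3.80. Of 21 ATF4 targets only Ddit3, the stress factor CHOP, was called, at 2.85, 3.19 and 2.54 against 3.96, 3.77 and 3.72 (1.08 ± 0.19, limma, adjusted p = 0.0324). Of 25 NRF2 and antioxidant genes, Nqo1, a quinone reductase, was the only call (0.97 ± 0.20, limma, adjusted p = 0.0451). Of 28 sterol and fatty acid genes it was Mvd, a mevalonate pathway enzyme (0.97 ± 0.20, limma, adjusted p = 0.0487). Each of these lists had 0 calls on the lower side and a median between 0.12 and 0.26. Calls made up 7.14% of the ER list. In the ATF4, NRF2 and sterol lists they were 4.76%, 4% and 3.57%, near the 3.81% of all units.

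**Figure D4:**
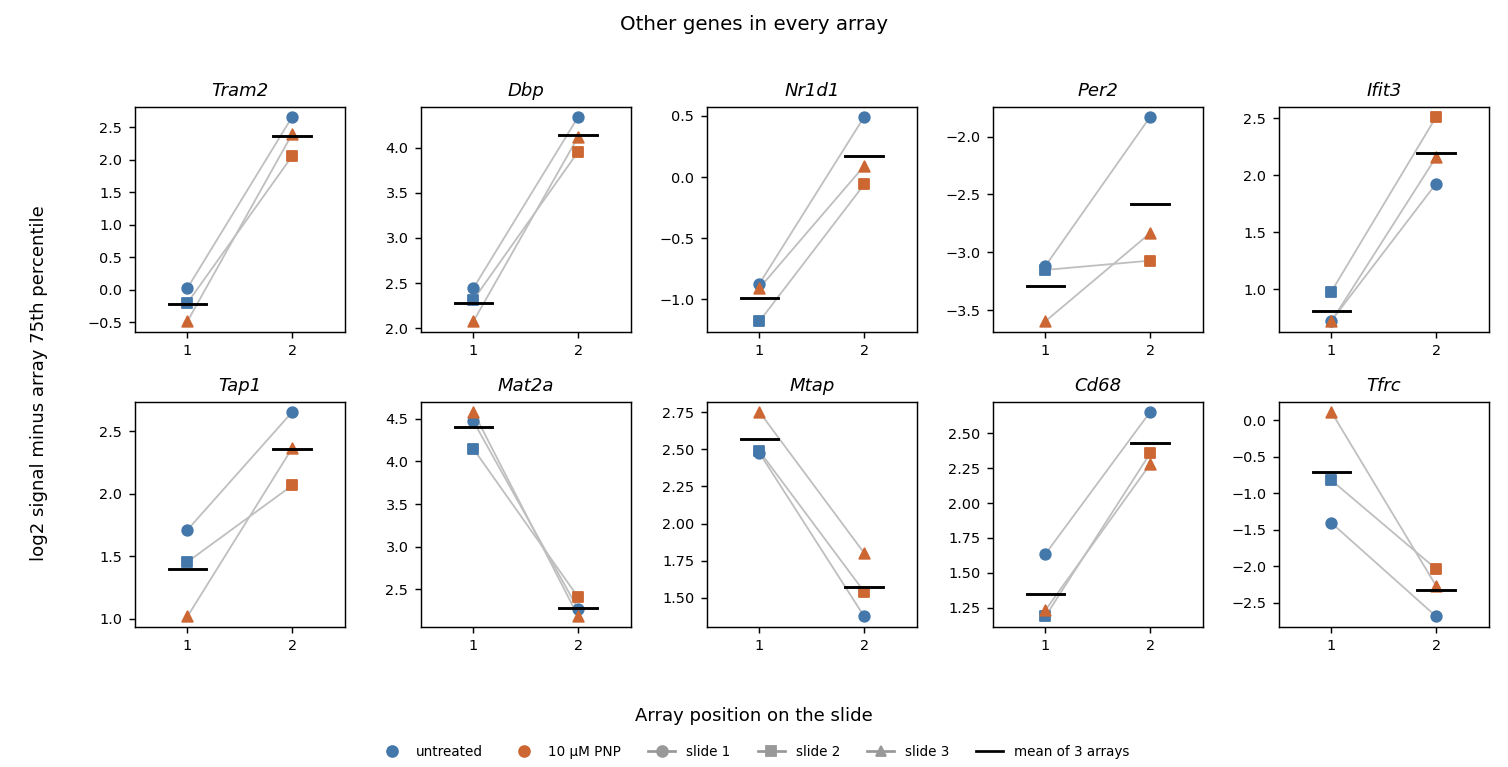
Levels of 10 further genes (log2 signal minus the array's 75th percentile) at positions 1 and 2, 1 point per array. Colour gives the treatment, the symbol and grey line the slide, and the black bar the mean of 3 arrays; each panel has its own axis. Tram2, Dbp, Nr1d1, Ifit3, Tap1 and Cd68 are higher at position 2 on all slides, and Mat2a, Mtap and Tfrc are lower. Per2 differs little on slide 2, whose arrays also differ in treatment.

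Genes induced by interferon were called on the higher side only. Of 27 measured, 3 were higher and 0 lower, and the median was 0.43. Ifit3, which binds viral RNA complexes, stood at 0.72, 0.98 and 0.72 against 1.93, 2.51 and 2.16 (1.35 ± 0.22, limma, adjusted p = 0.0262). Tap1, the peptide transporter of antigen presentation, stood at 1.71, 1.46 and 1.02 against 2.65, 2.07 and 2.36 (1.13 ± 0.19, limma, adjusted p = 0.0290), and another Tap1 probe gave 0.92. The arrays of the positions did not overlap for either gene. In this list 12 of 27 members had all position 2 arrays above all position 1 arrays, where 12.1% of all units did, and 1 had them below, where 11.2% did.

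Cytokine and NF-kB genes were called on the lower side only, 2 of 23, with a median of -0.36. Cxcl12, the chemokine of stromal cells, stood at 1.49, 1.14 and 1.17 against 0.34, 0.09 and 0.20, and had -0.996 ± 0.19, with -0.55 by another probe. Cxcl5, a chemokine for neutrophils, had -0.92 ± 0.18 (limma, adjusted p = 0.0381 and 0.0408). Early targets of TGF-beta and BMP moved both ways, with 3 lower and 1 higher of 23 and a median of -0.22. Pmepa1, a feedback inhibitor of TGF-beta signalling, had -1.33 ± 0.19, Grem1, a secreted BMP antagonist, -1.26 ± 0.18, and Snai2, a repressor of epithelial genes, -1.17 ± 0.20. Smad6, the inhibitory SMAD of the BMP pathway, stood at 1.65, 1.23 and 1.12 against 3.01, 2.22 and 2.45 (1.40 ± 0.21). All 4 passed in limma, with adjusted p from 0.0193 to 0.0291.

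Calls in growth and housekeeping lists were near or below the 3.81% of all units. They made up 3.03% of DNA replication, 3.57% of hypoxia and glycolysis and 3.85% of matrix and integrin genes. Of 33 DNA replication genes, 1 was lower, the origin recognition subunit Orc1 (-0.93 ± 0.18, limma, adjusted p = 0.0404), and the median was -0.25. An estimate below 0 was found for 28 of 33, against 43.1% of all units. At an unadjusted p under 0.05, 7 of the 33 were lower and 0 higher, against 9.78% and 11.7% of all units. All arrays of position 2 lay below all of position 1 for 11 of 33, where 11.2% of all units did. They lay above for 0, where 12.1% did. Another Orc1 probe gave -1.54. Of 28 mitotic genes, 33 ribosomal protein genes and 26 genes of oxidative phosphorylation, 0 were called in limma at an adjusted p under 0.05. At an unadjusted p under 0.05 there were 0 higher and 1 lower, 0 and 0, and 0 and 0. Their medians were 0.08, 0.24 and 0.22, and 17 of 28, 30 of 33 and 22 of 26 had an estimate above 0, against 56.9% of all units. Of 28 hypoxia and glycolysis genes, the lactate exporter Slc16a3 was the only call (-1.07 ± 0.22, limma, adjusted p = 0.0453), and of 26 matrix and integrin genes the fibrillar collagen chain Col5a1 (-0.99 ± 0.19, limma, adjusted p = 0.0404).

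Of 14 genes often used as references, 1 was called. Tfrc, the transferrin receptor, stood at -1.41, -0.82 and 0.11 against -2.69, -2.04 and -2.27 (-1.92 ± 0.26, limma, adjusted p = 0.0160). At position 1 it was highest in PNP replicate 2 and lowest in untreated replicate 1, and another probe gave -0.67. Hprt (-0.20 ± 0.20), Tbp (-0.13 ± 0.19) and Ppia (0.36 ± 0.21) did not pass (limma, adjusted p = 0.614, 0.746 and 0.370).

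Markers of the cell type were checked against the label. Of 30 Sertoli cell markers, 21 were measured, and 0 were called in limma between positions, with 4 higher and 2 lower at an unadjusted p under 0.05. Sox9, the factor of Sertoli cell fate, stood at 0.10, -0.26 and -0.66 against 0.08, -0.66 and -1.16, and Gata4 and Wt1 were also measured on every array. Their differences were -0.04 ± 0.23, 0.10 ± 0.24 and -0.35 ± 0.20 (limma, adjusted p = 0.943, 0.848 and 0.376). Amh, Fshr and Cldn11, which define Sertoli cells in the animal, had no probe past the filter. Of the marker lists for other cells of the testis, 1 of 8 Leydig, 3 of 13 germ cell, 6 of 6 peritubular myoid, 4 of 8 macrophage and 1 of 8 endothelial genes were measured. Of these only Cd68, a lysosomal protein of macrophages that other cells also make, was called, at 1.64, 1.19 and 1.23 against 2.65, 2.36 and 2.28 (1.16 ± 0.20, limma, adjusted p = 0.0295). Another Cd68 probe gave 1.44. The macrophage genes Adgre1, Ptprc, Lyz2 and Mrc1 had no probe past the filter, and the other measured ones, Csf1r, Cd14 and Itgam, had 0.11, -0.29 and 0.14. The summed signal of the 4, in multiples of the array's 75th percentile, was 16.8 to 19.1 at position 1 and 18.5 to 23.4 at position 2. That of the 21 Sertoli markers was 87.1 to 107 and 84.8 to 110.0. The 6 peritubular myoid genes summed to 173 to 237 and 182 to 236, above the Sertoli markers on every array. Sums of the Leydig, germ cell and endothelial genes were below that of the macrophage genes on every array.

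**Figure D5:**
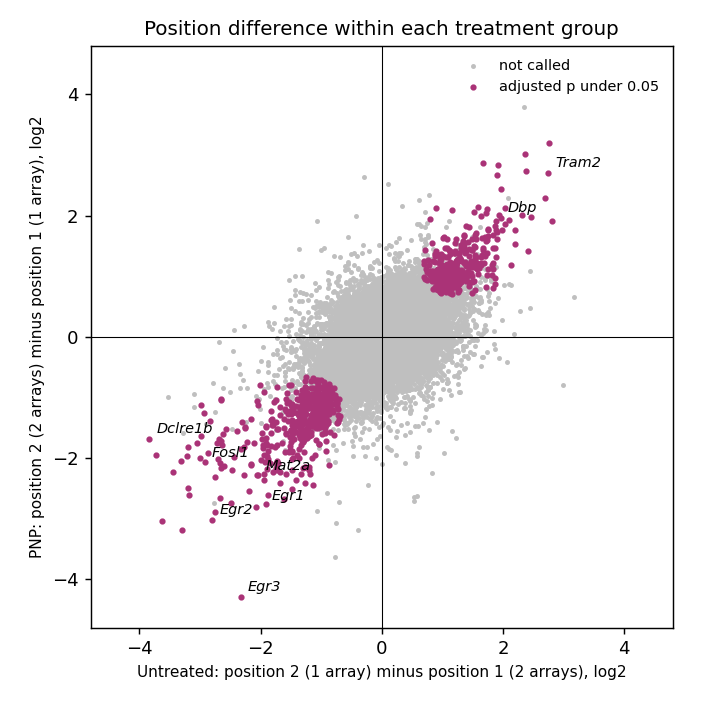
Difference between positions (log2) within untreated samples (x axis) and within PNP samples (y axis), 1 point per unit; 1 unit lies outside the axes. Within each treatment a difference sets 1 array against the mean of 2. The 819 called units, coloured, all lie in the lower left or upper right part of the plot, where both differences have the same sign. They were called from these same arrays, so this follows largely from how they were chosen.

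Beyond these lists, the largest differences among named genes came from many functions, often at low signal. Their size depended on the background correction. With normexp, 25 of the 63 called genes named here had a difference smaller by over 1.5 times, and 11 no longer passed in limma: Tent5c, Selenbp1, Hif3a, Dclre1b, Prokr1, Zfp592, B3galt6, Ptpn3, Lrrn4, Tmem151b and Cxcl5. Under that correction Egr3 had -0.76, Tfrc -1.26, Adcyap1r1 -1.36, Pbp2 -1.41, Jrk -1.23, Mef2b 1.16, Nrg4 0.94, Dlgap1 1.30 and Cdrt4 0.94, all still called.

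On the higher side, Scn1a, a neuronal sodium channel subunit, was at least 1.93-fold higher, and Tlcd5, Tent5c (a poly(A) polymerase), Tmem269, Agbl4 (a deglutamylase of tubulin) and Selenbp1 at least 2.98-fold, 2.20-fold, 2.23-fold, 1.55-fold and 1.97-fold, none of them above background on any array of position 1. Grap, an adaptor of the GRB2 family that links receptors to RAS, stood at -2.17, -2.41 and -2.55 against -0.25, -0.66 and -0.71 (1.95 ± 0.18, limma, adjusted p = 0.0103). Mef2b, a MADS-box transcription factor, had 1.88 ± 0.18, and Nrg4, a ligand of the ERBB4 receptor, 1.71 ± 0.21, with 1.18 by another probe (limma, adjusted p = 0.0103 and 0.0140). Cdrt4, above background on 2 of 3 arrays of position 1, had 2.37 ± 0.44 (limma, adjusted p = 0.0349). For Dlgap1, a scaffold of synapses, the brightest probe had 2.38 ± 0.29 (limma, adjusted p = 0.0140) and another probe 0.30, and for the phosphatase Ptpn13 they had 1.87 ± 0.19 (limma, adjusted p = 0.0127) and -1.34, in opposite directions.

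On the lower side, Adcyap1r1, the receptor of the peptide PACAP, stood at -0.51, -0.83 and -0.69 against -3.15, -2.95 and -2.82. The positions were far apart and narrow, with a difference of -2.34 ± 0.19 (limma, adjusted p = 0.0103) and -1.48 by another probe. Prokr1, the receptor of prokineticins, was at least 2.83-fold lower, and another Prokr1 probe gave -2.61. Hif3a, a hypoxia factor that opposes HIF1A, was at least 2.26-fold lower, and Ptpn3, B3galt6, Lrrn4 and Tmem151b at least 2.73-fold, 2.29-fold, 2.26-fold and 1.63-fold. Jrk, a DNA-binding protein, had -2.45 ± 0.22 and Pbp2 -2.33 ± 0.26 (limma, adjusted p = 0.0103 and 0.0136). Zfp592, a zinc finger gene, stood at -3.08, -3.24 and -2.59 against -6.16, -4.75 and -4.46, and cleared background on 1 of 3 arrays of position 2, so the size of its difference rests largely on signal near background (-0.48 with normexp). Dclre1b, a nuclease that protects telomeres, stood at -2.59, -2.07 and -2.47 against -6.17, -3.77 and -4.53, above background on 2 of 3 arrays of position 2, and the lowest value, that of untreated replicate 2, set much of the difference of -2.76 ± 0.48 (limma, adjusted p = 0.0300). Its slides gave -3.58, -1.69 and -2.06, and without that array the difference was -1.68.

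Some called genes cleared background on every array of a position and on none of the other. Only RefSeq transcripts without clone or predicted names, and with no other probe above background at the dim position, were counted. Of these, 17 cleared background at position 1 alone and 11 at position 2 alone. They are thus not a count among all called named genes, and the same share of all units was not counted. These 28 were singled out after their values were seen. Each passed the filter only through the position where it cleared background. Their folds are bounds, from 1.19 for Kcnip4, a potassium channel partner, to 3.99 for Egr3 on the lower side and from 1.55 for Agbl4 to 2.98 for Tlcd5 on the higher side.

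Genes with more than 1 probe past the filter gave a check that does not share the probe, though it shares the arrays and the RNA. Of 149 called genes with another probe, the other probe had the same direction in 125, in 55 of 69 higher and 70 of 80 lower. The other probe differed at least 2-fold in that direction in 52, of which 22 were higher and 30 lower. Its median difference was 0.75 where the brightest probe had 1.09, and -0.83 where the brightest had -1.11. In 24 genes the other probe pointed the opposite way, and in 11 of them with an unadjusted limma p under 0.05. These 11 were also singled out after their values were seen. Sema5a, an axon guidance protein, had -1.98 and 1.61, Osmr, the oncostatin M receptor, -1.19 and 1.22, and Il1rap, the accessory chain of the interleukin 1 receptor, -1.11 and 0.85. Klf3, a transcriptional repressor, had 1.46 and -1.60, Samd4, an RNA-binding repressor of translation, 1.45 and -1.37, and Atrn, a membrane protein of pigment signalling, 1.05 and -0.95. Fosl2 and Ptpn13, above, belong to the same set, and the others were Wipf1, Ttbk2 and Zmynd11. For these genes no direction of the gene as a whole can be given from the arrays.

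Each annotation class of transcripts held calls. They made up 2.05% of 391 EST clusters, 3.90% of 692 transcripts of other kinds, 3.61% of 12750 RefSeq mRNAs, 3.65% of 3478 Ensembl transcripts, 3.71% of 1725 genomic intervals, 4.60% of 1239 GenBank clones, 5.54% of 560 RefSeq models and 6.72% of 670 RefSeq noncoding RNAs, where 3.81% of all units were called. Differences between these shares were not tested.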

How the data were processed

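The deposited intensity values are processed signals background-subtracted but not normalized between arrays by Agilent Feature Extraction (11.5.1.1 per the file headers; the submitters' processing notes name 10.7). The log2 table deposited by the authors (median 4.74 in every column, as read from its values; its normalization is not given in the sources used here) follows each array's signal with a correlation of at least 0.998 and served as an alternative.

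Here log2 signal was averaged over a probe's spots without control and outlier spots, and the array's 75th percentile was subtracted. Probes entered if well above background on all 3 arrays of a position (28302 of 56605). Symbols came from a RefSeq table of GRCm38.p6, used for names and promoters. Position was tested in limma 3.58.1 (R 4.3.3), two-sided with Benjamini-Hochberg adjustment over every unit. Treatment was a covariate; the code was tested on simulated data. Named are, per direction, the 14 called genes with the largest difference and separate positions, a fixed panel, and up to 5 called members per list; exceptions are stated, and 1 item is not reported here. Members, markers and lists were chosen with earlier results of these data known. Alternatives covered background correction (normexp, offset 50), scaling, filters, variance models, blocks for slide and replicate number, probe choice, an adjusted p under 0.1, each treatment alone and leaving out each array; 2 combinations of a stricter filter were added after the data were seen.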

Additional observations from a re-analysis of the deposited data

How the results depend on the processing

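Against 819 calls, 657 of them at least 2-fold, limma gave 1507 calls with a robust variance trend, 2387 with slide as a fixed block in place of treatment, 3480 with slide as a random block, 1307 with every probe as a unit and 1941 at an adjusted p under 0.1. Slide with treatment gave 2538 calls and 994 at 2-fold. Array weights gave 5555 and 1015, with untreated replicate 1 weighted 6.80 and the other arrays 0.26 to 1.68. Without a filter 0 units passed, the smallest adjusted p was 0.200, and 818 of the 819 kept their direction. PNP samples alone gave 85 calls, all at 2-fold, and untreated samples alone 655; each rests on 1 array against 2. After normexp correction 227 calls were at 2-fold (223 with the stricter filter as well, an alternative chosen after seeing the data), of 1109. Leaving out each array in turn gave 1 to 1464 calls and 1 to 1000 at 2-fold; a lone array was then assumed to vary like the others. With the replicate block, 612 units were called, 455 of them among the 819; deviations of arrays with the same number correlated at -0.43, -0.59 and -0.43, but each number joins 1 array of each position, so position itself enters these values and they say nothing of a shared source. The interaction gave 8 calls with normexp and 1 with the robust trend. Of 63 called genes among those named, 0 changed direction under the alternatives that give a gene 1 value (46 of the 63 were tested under the stricter filter); single probes of Fosl2 and Ptpn13 oppose each other. Of the 63, 52 stayed called after normexp, 58 with quantile normalization, 58 with the authors' values, 1 without untreated replicate 2 and 5 without PNP replicate 2. The number of arrays, and signal near background for the genes given as bounds, limit the precision.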
